A study of Mus musculus with 11 samples.

Results

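Rgs3, the B-class ephrins Efnb1, Efnb2 and Efnb3, and the EphB receptors Ephb1, Ephb2, Ephb3 and Ephb4 were followed in the forebrain transcriptomes of Kif20a knockout embryos. These 8 genes were taken by symbol from 2 expression tables of 20475 genes each, and all 8 were found once in each table. B-class ephrins are transmembrane ligands. When they meet an EphB receptor on a neighbouring cell, the receptor's kinase signals forward into its own cell and the ephrin signals in reverse into the cell that carries it. RGS3 is a regulator of G protein signaling. Its PDZ form binds the cytoplasmic tail of B-class ephrins and its RGS domain speeds the return of Gαi and Gαo subunits to their inactive state. In the embryonic cortex this reverse signal is known for holding neural progenitors in the progenitor state. KIF20A is a mitotic kinesin that binds RGS3, and the comparisons ask whether the transcripts of this ligand, receptor and RGS pathway moved when Kif20a was lost.

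Poly(A) RNA was measured by RNA-seq at embryonic day 12.5 in 11 libraries. Of these, 6 made up the germline comparison (3 wild-type, 3 knockout) and 5 the inducible comparison (2 wild-type, 3 knockout). The germline knockout carried the knockout-first allele, a Kif20a locus interrupted by a LacZ and neomycin cassette, which came from 1 targeted ES cell clone crossed to C57BL/6J. In the inducible line the same allele, with the cassette removed, carried loxP sites (Kif20a fl/fl). Nestin-CreERT2, active in neural progenitors, was induced there by tamoxifen given to the pregnant dams some days before collection. Cells outside the Nestin lineage keep Kif20a there. The study's controls in that line elsewhere are Kif20a fl/fl littermates without Cre, and the labels call those sequenced wild-type. The labels name the tissue forebrain and the study names it cortex. Neither says whether a library is 1 embryo or a pool, so P values cover the spread between these libraries only.

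Kif20a itself was checked first. Germline wild-type libraries held 2456, 2295 and 2680.2 normalized counts of it and germline knockouts held 409, 374 and 503, a log2 fold change of -2.54 (SE 0.15, limma adjusted p = 0.00845). In the inducible comparison it stood at 4760.1 and 4844 in wild-type and at 3125, 2915 and 2853 in knockout libraries, a log2 fold change of -0.70 (SE 0.06, limma adjusted p = 0.0107). The inducible knockout libraries therefore kept 65.1%, 60.7% and 59.4% of the wild-type mean. Counts were summed over all exons, so the remaining values are not a share of intact transcript. The study places the remaining germline signal in the first exons of Kif20a. It names varied Cre expression as a possible reason for the inducible remainder, which was not tested here. The summed values of a library lay between 13048716 and 15551274 normalized counts in the germline table and between 24118520 and 24497307 in the inducible table.

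Several libraries stood apart from their groups, by markers of regions and cell types. Germline knockout replicate 2 held 176% of the wild-type mean of 6 dorsal telencephalon markers and 188% of 10 neuron markers, but 3.42% of 10 pericyte and cranial mesenchyme markers and 3.44% of 7 microglia markers, with 2 and 3 of those genes under 1 normalized count. Germline knockout replicate 1 held 325% of 6 diencephalon markers and 302% of the pericyte and mesenchyme markers, and 43.8% of the neuron markers. Not every marker of the first 2 lists was higher there. Rgs5, of the pericyte and mesenchyme list, stood at 108 normalized counts, against 129 to 329 in wild-type libraries. Lhx9, of the diencephalon list, stood at 748, inside the wild-type range of 718 to 1282. Germline knockout replicate 3 held 56.7% of the neuron markers and 157% of the pericyte and mesenchyme markers, each outside the wild-type range. Summed radial glial progenitor markers lay between 93.4% and 106% in all 6 germline libraries, but single markers were less steady. In knockout replicate 2 Hes1 stood at 1726 normalized counts, against 493 to 568 in wild-type libraries. Nes stood at 5312 in that replicate, against 6852 to 11879. Fabp7 was lower in every germline knockout than in any wild-type library. In the inducible comparison the 9 ventral telencephalon markers ran from 70.5% in wild-type replicate 2 to 159% in knockout replicate 3. The sum of 10 cortical hem and choroid plexus markers was lower in every knockout than in either wild-type library there, though not every single marker was. It stood at 90.6% and 109% in wild-type and at 87.4%, 78.0% and 42.0% in knockout replicates 1, 2 and 3. All 6 dorsal telencephalon markers, Tbr1 among them, were present in every library of both tables. Y-linked genes summed to 1715 and 4582 normalized counts in germline wild-type replicates 1 and 3 and to 1376 in knockout replicate 3. In the other 3 germline libraries they summed to at most 9.85. They were at most 4.24 summed counts in both inducible wild-type libraries and at least 2390.4 in all 3 knockout libraries, so sex and genotype cannot be told apart in the inducible comparison. Eif2s3y and Kdm5d followed this split. Ddx3y did so less fully, at 0.98 and 1.07 in wild-type and at 393, 2.0 and 187.9 in knockout replicates 1, 2 and 3. Like Kif20a, these Y-linked genes are given to at most 2 decimals, unlike most inducible genes.

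The site on the ephrins that RGS3 binds is shown first, because it is what ties the 3 ligands to RGS3. It lies at the end of the cytoplasmic tail. The last 33 codons and the stop codon of each gene, read from the GENCODE M1 transcripts on NCBIM37 (mm9), are printed 5′ to 3′ on the coding strand, with capitals where all 3 genes have the same base.
Efnb1: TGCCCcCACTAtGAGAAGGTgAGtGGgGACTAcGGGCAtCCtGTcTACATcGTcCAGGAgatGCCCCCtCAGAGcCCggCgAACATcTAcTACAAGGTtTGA
Efnb2: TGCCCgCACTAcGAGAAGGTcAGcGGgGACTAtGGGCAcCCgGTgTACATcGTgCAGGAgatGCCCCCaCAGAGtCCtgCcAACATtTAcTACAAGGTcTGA
Efnb3: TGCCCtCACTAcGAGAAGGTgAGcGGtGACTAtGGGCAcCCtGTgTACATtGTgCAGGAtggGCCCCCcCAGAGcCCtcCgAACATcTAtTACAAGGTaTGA
The stretches lie within the last coding exon of each gene, at chrX:96342765-96342866 on the plus strand for Efnb1, chr8:8620588-8620689 on the minus strand for Efnb2 and chr11:69369362-69369463 on the minus strand for Efnb3. Of the 102 bases, 80 (78.4%) were identical in all 3 genes. In pairs, 87 bases were shared by Efnb1 and Efnb2, 85 by Efnb1 and Efnb3 and 87 by Efnb2 and Efnb3. Of 34 codons, 14 were the same in all 3 genes base for base.

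RNA-seq counts were summed over all exons of a gene, so forms of RGS3 cannot be separated here. In the same annotation Rgs3 spans chr4:62220881-62364052 on the plus strand and has 10 coding transcripts, with 10 different starts. Of these, 5 hold the last exon of the gene and 5 end before it. Of 8357 exon bases, 27.0% belong only to the first kind, 47.6% only to the second and 25.5% to both. The receptor genes are Ephb1 (chr9:101824458-102257023, minus strand), Ephb2 (chr4:136203454-136391903, minus strand), Ephb3 (chr16:21204828-21223378, plus strand) and Ephb4 (chr5:137791337-137819897, plus strand). Among the 8 genes, exons of another gene overlapped only those of Ephb1, by 152 bases (3.26%) on the opposite strand.

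All 8 genes were transcribed in every library and all passed the filter of a mean of at least 10 normalized counts. Levels of different genes were compared only per length, as normalized counts per kilobase of exon, scaled to 1000000 normalized counts in a library, within a table. The counts were summed over RefSeq exons and the lengths came from GENCODE M1 coding transcripts. These need not match, so per-length values of every gene are approximate. In germline wild-type libraries the ligands stood above the receptors. Efnb1 was at 56.0 ± 8.39 (SD, n = 3), Efnb2 at 47.4 ± 6.18 and Efnb3 at 23.6 ± 5.73. Ephb2 and Ephb1 followed at 12.6 ± 3.71 and 12.6 ± 1.89, then Ephb4 at 10.2 ± 1.51 and Rgs3 at 7.23 ± 0.939. Ephb3 was lowest at 2.63 ± 0.512. Efnb1 and Efnb2 overlapped in their ranges over the wild-type libraries, as did Ephb2, Ephb1 and Ephb4, whereas Efnb3 lay below both of the other ligands and above every receptor.

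The order was alike in the inducible wild-type libraries, with Efnb1 at 93.0 ± 12.9 (SD, n = 2), Efnb2 at 58.3 ± 7.86 and Efnb3 at 35.6 ± 7.02. The receptors ran from Ephb2 at 17.2 ± 0.992 through Ephb4 at 15.5 ± 0.0801 and Ephb1 at 12.1 ± 3.74 to Ephb3 at 4.25 ± 1.13, with Rgs3 at 7.82 ± 0.0308. The place of Rgs3 rests on the length used for it. On the longest coding transcript in place of the union of all coding exons, chosen after seeing the data, Rgs3 went from 7.23 to 12.9 in germline and from 7.82 to 13.9 in inducible wild-type libraries, which puts it beside Ephb1, Ephb2 and Ephb4.

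**Figure D1:**
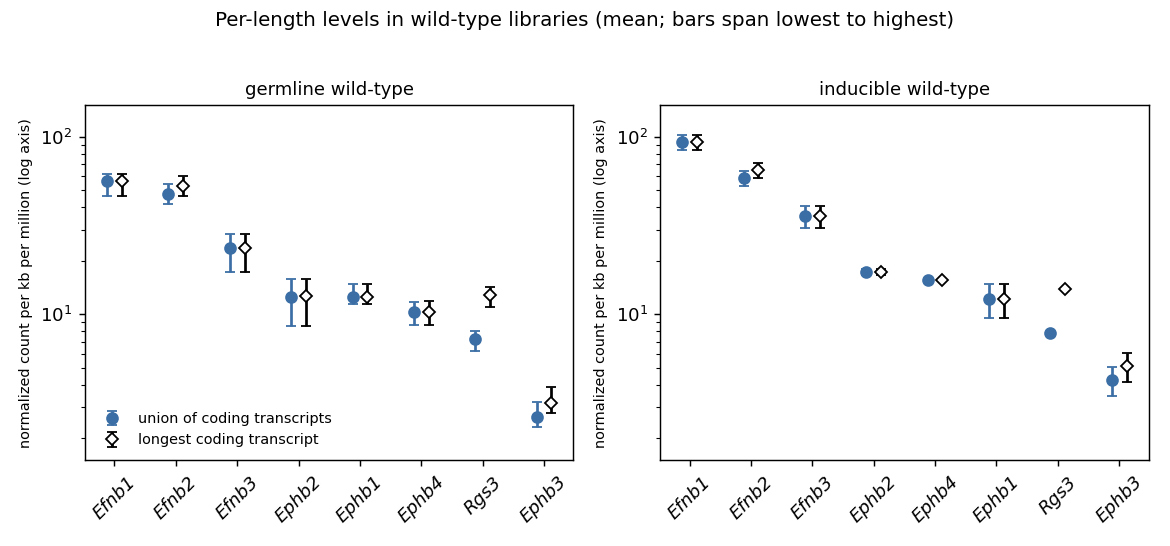
Per-length levels of the 8 genes in wild-type libraries, as scaled normalized counts per kilobase on a log axis, for the germline (left, n = 3) and inducible (right, n = 2) tables. Filled circles use the union of coding exons, open diamonds the longest coding transcript, and bars span the lowest to the highest library; Efnb1, Efnb2 and Efnb3 are the highest 3 genes in both panels, Ephb3 is the lowest, and only Rgs3 moves markedly with the length used.

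In the germline comparison the receptor Ephb3 was the only one of the 8 genes past the thresholds the study used, 1.5-fold or more with an unadjusted P no higher than 0.05. Over all 13938 genes tested, 382 (2.74%) passed these thresholds, and 1 gene (0.00717%) had an adjusted p under 0.05, Kif20a. None of the 8 had an adjusted p under 0.05, and the single call among 8 stands beside that background.

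Wild-type libraries held 707, 932 and 864 normalized counts of Rgs3, and knockouts held 735, 1163 and 864. Its groups overlapped, with the highest value in knockout replicate 2 and the lowest in wild-type replicate 1. The fold change was 1.09, with a 95% interval of 0.782 to 1.52 (log2 0.12, SE 0.20, limma adjusted p = 0.884).

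Efnb1, an X-linked ligand, stood at 2062, 2716 and 2784 normalized counts in wild-type and at 1895, 4407 and 2009 in knockout libraries. Knockout replicate 2 lay above and the other two below every wild-type library. Its fold change was 1.02 (95% interval 0.599 to 1.75, limma adjusted p = 0.984). Efnb2, the ligand also used in arterial endothelium, showed the same split, with 2721, 3584 and 3109.9 normalized counts in wild-type and 1709.7, 4626 and 2089.8 in knockout libraries. Its fold change was 0.817 (95% interval 0.457 to 1.46, limma adjusted p = 0.857). Efnb3 stood at 748, 1247 and 1122 in wild-type and at 839, 1434 and 872 in knockout libraries, with overlapping groups and a log2 fold change of 0.00 (SE 0.27, limma adjusted p = 0.999).

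Efnb1 and Efnb2 spread more widely among the knockout than among the wild-type libraries. Knockout replicate 2 held 2.33 times the Efnb1 and 2.71 times the Efnb2 of replicate 1, against at most 1.35 and 1.32 times between any 2 wild-type libraries. For Efnb3 the spread was much alike, at 1.71 times among knockout and 1.67 times among wild-type libraries. The 2 libraries concerned stood apart by dorsal telencephalon, neuron, diencephalon and mesenchyme markers. Knockout replicate 3, also low in Efnb1 and Efnb2, held 56.7% of the neuron markers. The knockout libraries left without replicate 2 were thus low in neuron markers, at 43.8% and 56.7% of the wild-type mean. Their summed dorsal telencephalon markers (60.5% and 80.5%) and intermediate progenitor markers (71.3% and 72.1%) were below the wild-type range too. Their pericyte and mesenchyme markers were above it, at 302% and 157%. The part of any of these cells in the levels of Efnb1 and Efnb2 was not tested. Fewer cells of a type and less RNA per cell cannot be told apart in bulk tissue. Without knockout replicate 2 the log2 fold change of Efnb2 was -0.72 (limma adjusted p = 0.142) and that of Efnb1 was -0.36 (limma adjusted p = 0.344), and 8.77% of all genes then passed the thresholds. Without knockout replicate 1 that of Efnb2 was 0.00 to 2 decimals (limma adjusted p = 0.999).

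Ephb1, an EphB receptor tyrosine kinase, stood at 737, 955 and 737 normalized counts in wild-type and at 670.5, 1138 and 657 in knockout libraries. It took the pattern of Efnb1 and Efnb2, with knockout replicate 2 above and the other two below every wild-type library, and its log2 fold change was -0.02 (SE 0.24, limma adjusted p = 0.991).

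Ephb2, Ephb3 and Ephb4 took another pattern, with the highest value in knockout replicate 1 and the lowest in wild-type replicate 1. Ephb3 stood at 180.4, 255 and 186 normalized counts in wild-type and at 423, 317 and 270.3 in knockout libraries. Every knockout library lay above every wild-type library, which held for 1 of the 8 genes, whereas groups did not overlap, in either direction, for 13.5% of all genes tested. The mean was 207 ± 41.6 (SD, n = 3) in wild-type and 337 ± 78.3 in knockout libraries, a fold change of 1.61 with a 95% interval of 1.10 to 2.37. Its log2 fold change was 0.69 (SE 0.23, limma P = 0.0215, adjusted p = 0.779), and the exact two-sided permutation p was 0.1, the smallest that 3 against 3 libraries can give. The call was lost without wild-type replicate 1, wild-type replicate 3 or knockout replicate 1, and with a covariate for Y-linked expression (log2 0.49, limma adjusted p = 0.997). Without wild-type replicate 1 or 3 the log2 fold change was 0.60 and 0.62, still past 1.5-fold, and only the unadjusted P no longer passed. Without knockout replicate 1, the library highest in diencephalon and mesenchyme markers, it was 0.51 (limma adjusted p = 0.889). The part of those cells in the result was not tested.

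Ephb4, a receptor of ephrin-B2 best known from veins, stood at 518, 628 and 709.9 normalized counts in wild-type and at 1111, 676 and 833 in knockout libraries. Knockout replicate 2 lay below wild-type replicate 3, so the groups overlapped. The fold change was 1.39 (95% interval 0.978 to 1.99, limma adjusted p = 0.779, exact permutation p = 0.2). Endothelial markers moved in part with it, at 160%, 36.8% and 114% of the wild-type mean in knockout replicates 1, 2 and 3. Ephb2 stood at 1273, 2397 and 2022 in wild-type and at 2808, 2632 and 2067 in knockout libraries, a fold change of 1.35 (95% interval 0.898 to 2.04, limma adjusted p = 0.779, exact permutation p = 0.2). The groups overlapped, since knockout replicate 3 lay below wild-type replicate 2. Without knockout replicate 2, Efnb2, Ephb3 and Ephb4 passed the thresholds, and Ephb4 then had a log2 fold change of 0.65 (limma adjusted p = 0.206). None of these had an adjusted p under 0.05 in that fit.

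**Figure D2:**
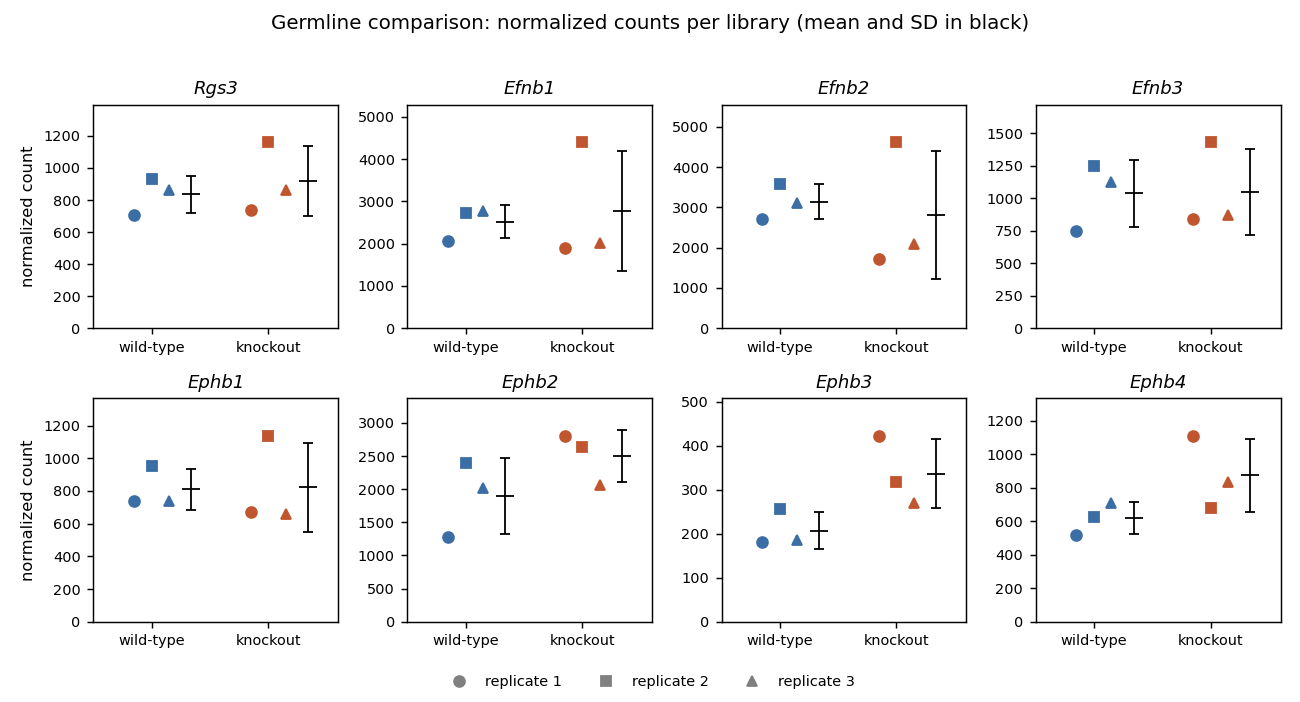
Normalized counts of the 8 genes in the 3 wild-type (blue) and 3 knockout (orange) libraries of the germline comparison, 1 marker shape for each replicate number, with the group mean and SD in black; each axis starts at 0. Knockout replicate 2 is the highest library for Rgs3, the 3 ligands and Ephb1, knockout replicate 1 is the highest for Ephb2, Ephb3 and Ephb4, and only Ephb3 has groups that do not overlap.

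The members thus fell in 2 sets by their highest library. Rgs3, Efnb1, Efnb2, Efnb3 and Ephb1 (5 genes) were highest in knockout replicate 2, the library rich in dorsal telencephalon and neuron markers. Across the 6 germline libraries, log2 values of Efnb1 and Efnb2 had a Pearson's r of 0.91, as did Efnb1 and Ephb1, and Rgs3 and Efnb3 had one of 0.92. Ephb3 had an r of 0.82 with Ephb2 and 0.79 with Ephb4, but 0.00 with Efnb1 and -0.31 with Efnb2. These are descriptions over 6 libraries that differ in their tissue markers.

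**Figure D3:**
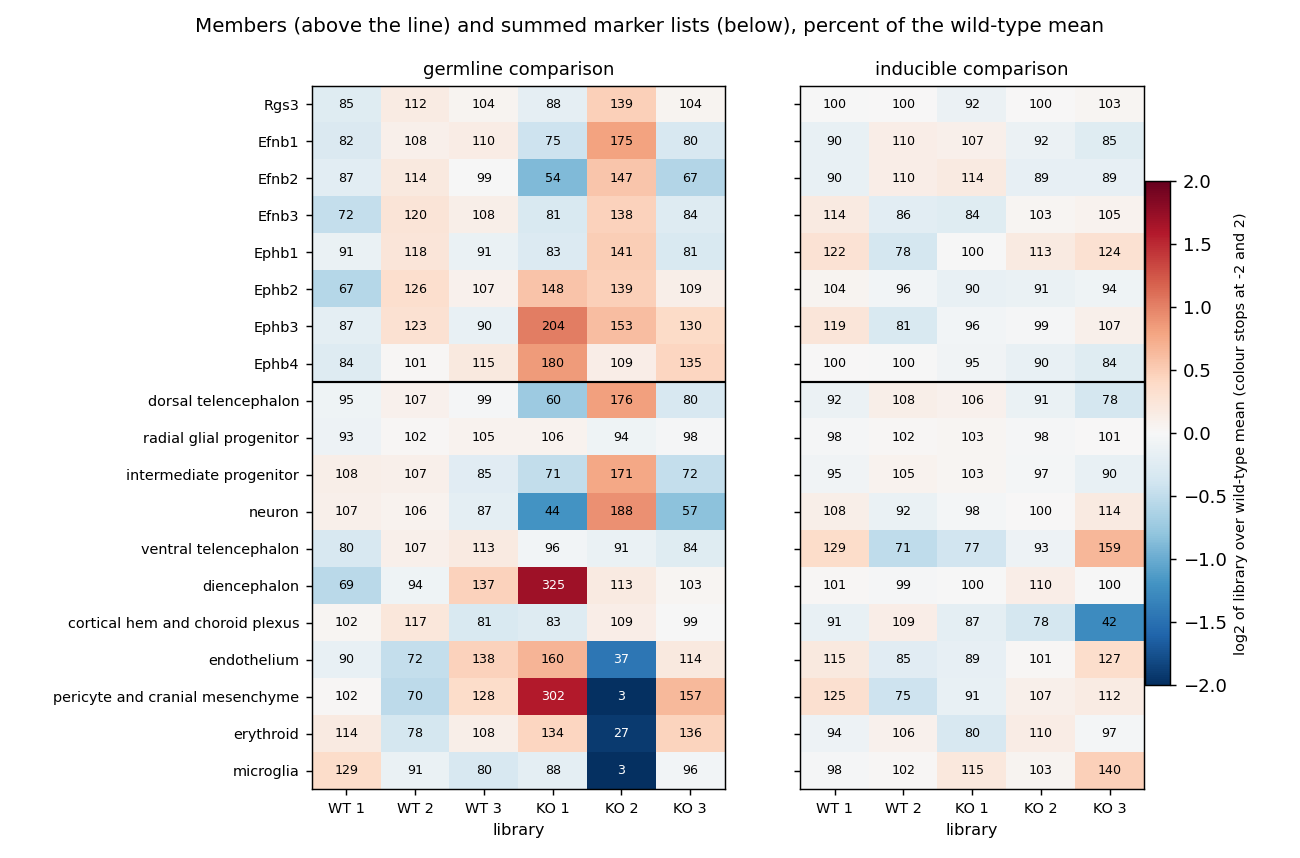
Each library's level as a percent of the wild-type mean of its table (number in each cell, colour on a log2 scale that stops at -2 and 2) for the 8 genes, above the line, and for summed normalized counts of 11 marker lists, below it. Germline knockout replicate 2 is high for the 3 ligands and for dorsal telencephalon and neuron markers and low for mesenchyme, erythroid and microglia markers, germline knockout replicate 1 is high for Ephb3, Ephb4, diencephalon and mesenchyme markers, and the inducible libraries span a narrower range.

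In the inducible comparison none of the 8 genes passed the thresholds by limma, and 1, Ephb4, had an unadjusted P of at most 0.05. Over all 14081 genes tested, 182 (1.29%) passed the thresholds and 5 (0.0355%) had an adjusted p under 0.05. The fold changes of the 8 genes lay between 0.898 and 1.15, closer to 1 than the germline range of 0.817 to 1.61. That difference in spread was not tested, since the tables were normalized separately.

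Rgs3 was the steadiest of them, at 1587 and 1602 normalized counts in wild-type and 1464, 1601 and 1641 in knockout libraries. Its fold change was 0.983, with a 95% interval of 0.883 to 1.09 (limma adjusted p = 0.965). Changes beyond those bounds lie outside the interval, while smaller ones cannot be told from 0 at this number of libraries.

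Efnb1 stood at 6654 and 8129 normalized counts in wild-type and at 7909.8, 6836 and 6272 in knockout libraries, a fold change of 0.948 (95% interval 0.786 to 1.14). Efnb2 stood at 6149 and 7470.4 in wild-type and at 7749.5, 6074 and 6049 in knockout libraries, a fold change of 0.971 (95% interval 0.790 to 1.19). Both ligands were higher in wild-type replicate 2 and knockout replicate 1 than in the other 3 libraries. Efnb3 went the other way, at 3143 and 2382 in wild-type and 2332, 2844 and 2890.4 in knockout libraries, a fold change of 0.978 (95% interval 0.786 to 1.22).

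Wild-type replicate 2 and knockout replicate 1 were also the libraries with the lowest summed ventral telencephalon markers, at 70.5% and 76.6% of the wild-type mean. Ephb1 and Ephb3 were lowest in the same 2 libraries. Ephb1 stood at 1679 and 1081 in wild-type and at 1377, 1564 and 1711 in knockout libraries (fold change 1.15, 95% interval 0.860 to 1.53), and Ephb3 at 703 and 482 in wild-type and 569.6, 585 and 637 in knockout libraries (fold change 1.02, 95% interval 0.80 to 1.31). Over the 5 libraries, r was 0.95 between Efnb1 and Efnb2 and -0.90 between Efnb1 and Efnb3, against 0.91 for both pairs over the germline libraries. Efnb1 and Efnb2 thus varied together in both tables, and Efnb3 went with them in the germline table only. The part of ventral tissue in this was not tested.

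Ephb4 and Ephb2 had groups that did not overlap in the inducible comparison, as 22.6% of all genes tested had. Ephb4 stood at 1659 and 1653 normalized counts in wild-type and at 1574, 1494 and 1398 in knockout libraries, lower in 3 of 3. Its fold change was 0.898 (95% interval 0.807 to 0.999, limma P = 0.0486, adjusted p = 0.825), well inside the 1.5-fold threshold, and the exact two-sided permutation p was 0.2. Summed hem and choroid plexus markers were also lower in all 3 knockout libraries, in the same order as Ephb4, down to 42.0% of the wild-type mean in replicate 3. Summed dorsal telencephalon markers fell in that order too, at 106%, 91.1% and 78.3% in knockout replicates 1, 2 and 3. Endothelial markers ran the other way, at 89.4%, 101% and 127%. The part of any of these cells in this result and in that of Ephb2 was not tested. Ephb2 stood at 4763 and 4405 in wild-type and at 4139, 4178 and 4313 in knockout libraries, the reverse of the order of the hem markers. Its fold change was 0.919 (limma P = 0.0591, adjusted p = 0.825), and the exact two-sided permutation p was 0.1, the smallest that 2 against 3 libraries can give. Ephb3, the gene called in the germline comparison, did not pass here (log2 0.03, 95% interval -0.32 to 0.39).

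**Figure D4:**
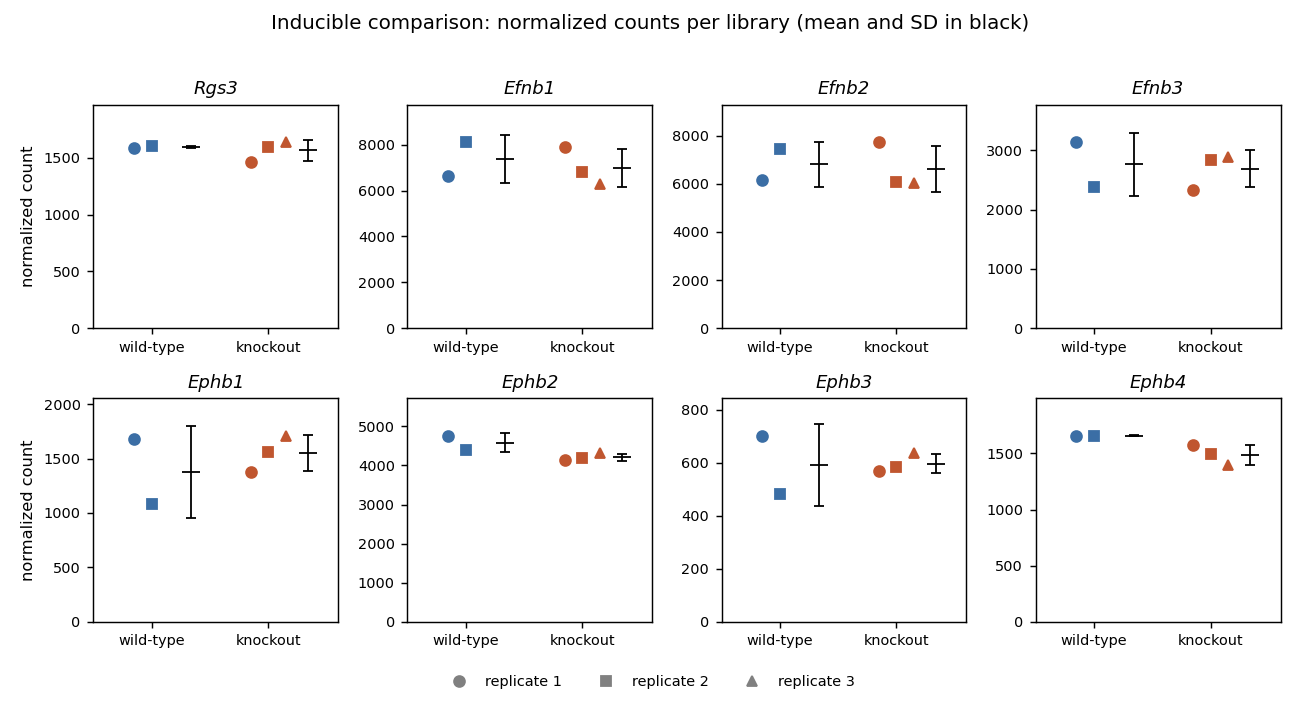
Normalized counts of the 8 genes in the 2 wild-type (blue) and 3 knockout (orange) libraries of the inducible comparison, drawn as for the germline comparison. Rgs3 lies between 1464 and 1641 in all 5 libraries, Efnb1 and Efnb2 are high in wild-type replicate 2 and knockout replicate 1, and the knockout libraries of Ephb2 and Ephb4 lie below both wild-type libraries.

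**Figure D5:**
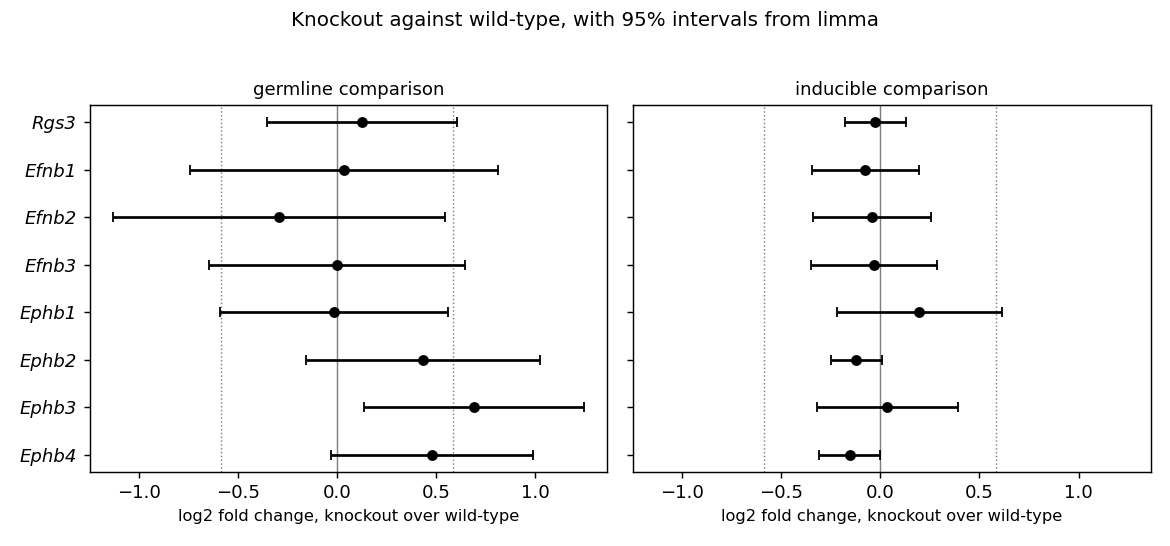
Log2 fold change of knockout over wild-type for the 8 genes with limma's 95% interval, in the germline (left) and inducible (right) comparison; dotted lines mark a fold of 1.5 in either direction and the solid line no change. Ephb3 in the germline comparison (0.69) is the only point past a dotted line whose interval stays clear of 0, and the inducible intervals are narrower than the germline ones for every gene.

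The rest of the pathway gave no call in either comparison. Outside the 8 genes, 6 lists held 101 genes, of which 89 could be tested with the germline libraries and 87 with the inducible ones. They are A-class ephrins, A-class receptors with Ephb6, adaptors and effectors of ephrin-B and EphB, other RGS proteins, G-alpha subunits, and G-protein modulators with the Cxcr4 axis. By limma 0 of 89 passed the thresholds in the germline comparison, none with an unadjusted P of at most 0.05 (5.39% of all genes tested), and their median log2 fold change was -0.02 against -0.04 over all genes tested. In the inducible comparison 0 of 87 passed, 8 had an unadjusted P of at most 0.05 (6.01% of all genes tested), and the median was 0.00 to 2 decimals in the lists and over all genes. By list, the germline medians were -0.03 for 5 A-class ephrins, -0.08 for 10 A-class receptors with Ephb6, 0.01 for 37 adaptors and effectors, -0.15 for 16 RGS proteins, -0.03 for 12 G-alpha subunits and -0.02 for 9 modulators. The 8 genes themselves had medians of 0.08 (germline) and -0.04 (inducible).

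The genes whose pattern over libraries was most like that of Rgs3 were not ephrins or receptors. By the mean of 2 Pearson correlations of log2 values, over 6 germline and 5 inducible libraries, Srrd came first of 13736 genes (0.95 and 0.95), followed by Zfyve19 (0.94 and 0.96), Dalrd3 (0.95 and 0.91), Scamp3 (0.92 and 0.92) and Terf2 (0.94 and 0.90). These too are descriptions over few libraries. Efnb3 was the most alike of the 7 other members, at 0.92 and 0.59 and place 309. Efnb1 had 0.91 in the germline and -0.60 in the inducible libraries, and Efnb2 had 0.78 and -0.71, so their likeness to Rgs3 in the germline table did not recur in the other. Ephb4 was the least alike, at -0.14 and -0.35.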

How the data were processed

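The authors prepared poly(A) libraries with a TruSeq kit, aligned the reads to mm9 with TopHat (the study's methods and the submitters' processing notes name different versions), summed reads over RefSeq exons per gene and scaled these by edgeR's trimmed mean of M-values. The deposited values are this signal, normalized counts per gene in each library, not scaled by length and not log-transformed. Because the values are fractional, tests for raw counts were not applied, and the depth in reads is not known. For the inducible line, 106 genes above 0 are given to at most 2 decimals. Kif20a, Eif2s3y, Kdm5d and Ddx3y are among them, and none of the 8 genes described is. No per-sample column was left unused (0).

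Each table was analysed alone, on the log2 scale after adding a pseudocount of 1, by limma 3.58.1 under R 4.3.3 (lmFit, eBayes with trend, two-sided), over genes averaging 10 or more normalized counts. P was adjusted by Benjamini-Hochberg over all genes tested. The 8 genes were also tested by an exact two-sided permutation of libraries, whose smallest p is 0.1 in either comparison. The code was tested on simulated data. Other pseudocounts (0.5 and 10), filters (none and a mean of 50), scalings, library weights, a replicate block, a Y-linked covariate and leaving out each library were tried. Gene positions, lengths and sequences came from GENCODE M1 on NCBIM37. Named genes are the 8, Kif20a, list genes past the thresholds and the 5 genes most like Rgs3. Others named are G-protein genes of the closing section, taken after their values were seen, markers of regions and cell types, and Y-linked genes. A marker gene is not reported here and was left out of its list. The genes and lists were chosen with earlier results of these data known.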

Additional observations from a re-analysis of the deposited data

Results flagged for a closer look

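The knockout libraries of Ephb2 and Ephb4 lay on opposite sides of the wild-type mean in the 2 lines. In the germline comparison every knockout library lay above the wild-type mean, with log2 fold changes of 0.44 for Ephb2 and 0.48 for Ephb4. In the inducible comparison every knockout library lay below it, with log2 fold changes of -0.12 for Ephb2 and -0.16 for Ephb4. The germline groups of both genes overlapped. The difference between the lines was not tested, because the tables were normalized separately, and neither gene passed the thresholds in either comparison.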

How the results depend on the processing

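Ephb3 in the germline comparison stayed past the thresholds with other pseudocounts, filters and scalings, without trend, with library weights and with a replicate block. Counts of the 8 genes past the thresholds were 3 with library weights, 0 with the Y-linked covariate and 0 to 3 on leaving out a library (0 without wild-type replicate 1 or 3 or knockout replicate 1, 2 without wild-type replicate 2, 3 without knockout replicate 2). None of the 8 genes passed in the inducible comparison under any alternative. Over all genes the germline count of 382 became 1044 with library weights, 186 with the Y-linked covariate and 157 to 1229 without 1 library, and the inducible count of 182 became 357 without a filter, 72 at a mean of at least 50 and 126 to 322 without 1 library.

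Germline pathway genes past the thresholds numbered 1 with a pseudocount of 10, no filter, quantile normalization, median-ratio scaling, no trend or the replicate block. Of all genes tested, 2.70% to 3.19% passed in these fits. Pathway genes numbered 2 of 89 with the Y-linked covariate (1.33% of all genes tested) and 5 of 89 with library weights (7.49%). Without 1 library they numbered 0 to 7, the most being 7 of 88 without knockout replicate 2 (8.77% of all genes tested). Inducible pathway genes numbered 0 to 1 without 1 library, and 1 (Rgs17) without wild-type replicate 1.

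Log2 fold changes that changed sign had an unadjusted P above 0.05 as reported. In the germline comparison these were Efnb1 under quantile normalization (-0.0052), library weights (-0.36) and the Y-linked covariate (-0.20), Efnb3 under equal totals (-0.012), library weights (-0.30) and the Y-linked covariate (-0.21), Rgs3 under library weights (-0.093) and Ephb1 under median-ratio scaling (0.020). For the inducible line it was Efnb3 under library weights (0.018). Without 1 library the germline values ran from -0.057 to 0.27 for Rgs3, -0.36 to 0.25 for Efnb1, -0.25 to 0.15 for Efnb3 and -0.27 to 0.12 for Ephb1. The inducible values ran from -0.059 to 0.024 for Rgs3, -0.22 to 0.068 for Efnb1, -0.18 to 0.097 for Efnb2, -0.23 to 0.17 for Efnb3, -0.12 to 0.51 for Ephb1 and -0.24 to 0.31 for Ephb3. The cause was not tested. A group left with 1 library was assumed to vary like the other.

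Deviations of same-numbered libraries correlated at -0.12, 0.31 and 0.25 in the germline and at -0.35 and -0.05 in the inducible comparison, and not every library correlated best with its own number, so the numbers were not taken as pairs. With the replicate block 376 germline and 163 inducible genes passed, Efnb2 (0.018) and Ephb3 (-0.012) changed sign in the inducible comparison, and no call of the 8 genes changed.

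Per-length levels on the longest coding transcript were 12.9 for Rgs3 and 3.16 for Ephb3 in germline wild-type, and 13.9 for Rgs3 and 15.6 for Ephb4 in inducible wild-type libraries. With 2 or 3 libraries a group and the depth in reads unknown, changes smaller than the intervals given cannot be seen.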

Other observations

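The genes of Gαi, Gαo and Gαz subunits and the Gpsm genes, whose products bind Gαi, are given here together, chosen after their values were seen. None of the 8 passed the thresholds in either comparison. Among the inducible libraries Gnai1 stood at 425 and 386 normalized counts in wild-type and at 468, 519 and 517 in knockout libraries, a log2 fold change of 0.31 (SE 0.09, limma adjusted p = 0.798). Gnai2 stood at 13899 and 13979 in wild-type and at 12885, 12864 and 12686 in knockout libraries, a log2 fold change of -0.12 (SE 0.05, limma adjusted p = 0.825). Gnai3 stood at 6267 and 6509 in wild-type and at 6834, 6352 and 6432 in knockout libraries, with overlapping groups and a log2 fold change of 0.03 (SE 0.05, limma adjusted p = 0.94). The log2 fold changes of Gnao1 and Gnaz were 0.09 and 0.03, and those of Gpsm1, Gpsm2 and Gpsm3 were -0.05, -0.15 and 0.19. Because the 8 were chosen after their values were seen, a count among them is not a result about the group. For 3 of the 8 (Gnai1, Gnai2 and Gpsm2) the unadjusted P did not exceed 0.05, which held for 6.01% of all genes tested. Among the germline libraries this held for none, and the log2 fold changes were -0.04 for Gnai1, 0.15 for Gnai2, -0.13 for Gnai3, 0.09 for Gnao1, -0.37 for Gnaz, 0.05 for Gpsm1, 0.05 for Gpsm2 and 0.15 for Gpsm3.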
